A study of Lytechinus variegatus with 64 samples.

Results

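The ovaries of the sea urchin Lytechinus variegatus were compared at an early and an adult state, in 6 of the 64 libraries of a tissue atlas. The early side had 2 libraries, chosen by their labels: 1 from an ovary labelled stage 1 and 1 from the ovary of a juvenile 4.5 months after fertilization. The adult side had 4 ovary libraries, and 4 libraries of unfertilized eggs served as a second reference. All animals were wild type. The adults came from a supplier in Florida and were either dissected or spawned for gametes, and polyA RNA was sequenced. The labels give no age for the stage 1 ovary and do not define the stage. They state that Novogene made the libraries of adult tissues and Admera Health those of juvenile tissues, so in the juvenile library age and provider cannot be told apart. The 2 early libraries carry different labels and are not replicates of one condition. Nor do the labels say whether the 4 adult ovaries came from 4 animals.

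A sea urchin ovary holds germ cells at successive stages of oogenesis and a somatic tissue of nutritive phagocytes, cells that store nutrients and release them as oocytes grow. Oocytes accumulate maternal transcripts, proteins and yolk. Sea urchin eggs complete meiosis inside the ovary and are stored there as mature eggs until spawning. The proportion of nutritive phagocytes and of germ cells in the gonad changes with the reproductive cycle. The count table and the RefSeq gene table pair the gene identifiers with no product names, so the genes below are given by identifier, and no germ cell or nutritive phagocyte marker could be looked up by name.

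The stage 1 library held 59521125 counts and the juvenile library 34624033, against 22680012 to 56763398 in the adult ovaries and 29833366 to 51211276 in eggs. Counts were scaled by library size to CPM with TMM factors, which correct for differences in library composition. The stage 1 ovary had 16358 genes at 1 CPM or more and the juvenile ovary 17244. Adult ovaries had 12182 to 13787 and eggs 15239 to 15972. The 10 most abundant genes took 25.8% of counts in the stage 1 ovary, 16.1% in the juvenile ovary, 7.43% to 9.2% in adult ovaries and 13.4% to 21.5% in eggs. Across the 22187 genes tested, the rank correlation between the early libraries was 0.871. Each early library correlated with the egg libraries at 0.853 to 0.893 and with the adult ovaries at 0.687 to 0.735, while adult ovaries correlated with each other at 0.9 to 0.912. These are correlations across genes of one pair of libraries, and genes are not independent replicates. The typical absolute difference per gene (median, log2 scale) was 0.53 between adult ovary libraries, 0.63 between egg libraries, 0.71 between the early libraries, 0.67 between an early and an egg library and 1.46 between an early and an adult ovary library. Egg replicates 1 and 3 lay nearer to the adult ovaries, with rank correlations of 0.765 to 0.819, than egg replicates 2 and 4, with 0.694 to 0.765.

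Early and adult ovaries differed in a large part of the transcriptome, in both directions. Of 22187 genes tested, 4540 (20.5%) were higher and 3587 (16.2%) lower in the early ovaries than in the adult ovaries. A gene was called at an adjusted p under 0.05 and at least a 2-fold change, in edgeR's quasi-likelihood test with Benjamini-Hochberg adjustment, with the mean of the early libraries against the 4 adult ovaries. In 4502 of the genes called higher and 3416 of those called lower, the early and adult libraries did not overlap. Over all genes tested, both early libraries lay above every adult ovary in 8771 (39.5%) and below every one in 4293 (19.3%). The filter let a gene enter on the level of a single library, so genes with no counts in any adult ovary were also tested. With a filter that ignored the groups, 2936 genes were called higher and 2909 lower, so the excess of higher genes depends on the filter. The median log2 fold change of all genes tested was 0.77, and it was 1.04 with DESeq2 size factors and 0.87 with library totals only, so fold changes can be read against that shift. The spread came from the adult ovary and egg libraries alone, and each early library was assumed to vary like those. With the stage 1 ovary alone as the early side, 3474 genes were called higher and 1890 lower. With the juvenile ovary alone, 3387 and 2119 were called. In bulk tissue, fewer cells of a type and less RNA per cell cannot be told apart.

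The genes on which both early libraries went the same way by a wide margin were then collected. In 1160 genes (5.23% of those tested) both early libraries lay at least 4-fold above every adult ovary, with 0.5 CPM added to each value and at least 10 CPM in both early libraries. In 1165 genes (5.25%) both lay at least 4-fold below every adult ovary, with at least 10 CPM in all 4 adult libraries. The margins nearest to the threshold were 4.001-fold inside and 4.0-fold outside for the higher genes, and 4.001-fold and 3.999-fold for the lower ones. Taken singly, the stage 1 ovary passed this rule for 1799 higher and 1671 lower genes and the juvenile ovary for 1964 and 1642. The genes held by both made up 64.5% of the stage 1 list and 59.1% of the juvenile list among the higher genes, and 69.7% and 71.0% among the lower. Both lists share the adult ovaries as their reference. The rule used the same libraries as edgeR, which called 1158 of the 1160 and 1161 of the 1165.

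These lists took up a large part of the RNA on each side. The 1160 higher genes held 65.8% of counts in the stage 1 ovary and 49.96% in the juvenile ovary. In adult ovary replicates 1 to 4 they held 0.47%, 0.673%, 0.479% and 1.12%. In egg replicates 1 to 4, which the rule did not use, they held 58.3%, 62.1%, 56.7% and 61.0%. The rule chose the genes from the early and adult ovary libraries, so the direction of the gap between their shares was set by the choice. This also holds for the lower genes below. The 1165 lower genes held 2.24% of counts in the stage 1 ovary and 3.91% in the juvenile ovary, and 45.7%, 47.6%, 46.9% and 39.9% in the adult ovaries. In eggs they held 7.6%, 2.77%, 11.8% and 2.86%. Egg replicates 2 and 4 lay within the range of the early ovaries, and replicates 1 and 3 lay above them.

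**Figure D1:**
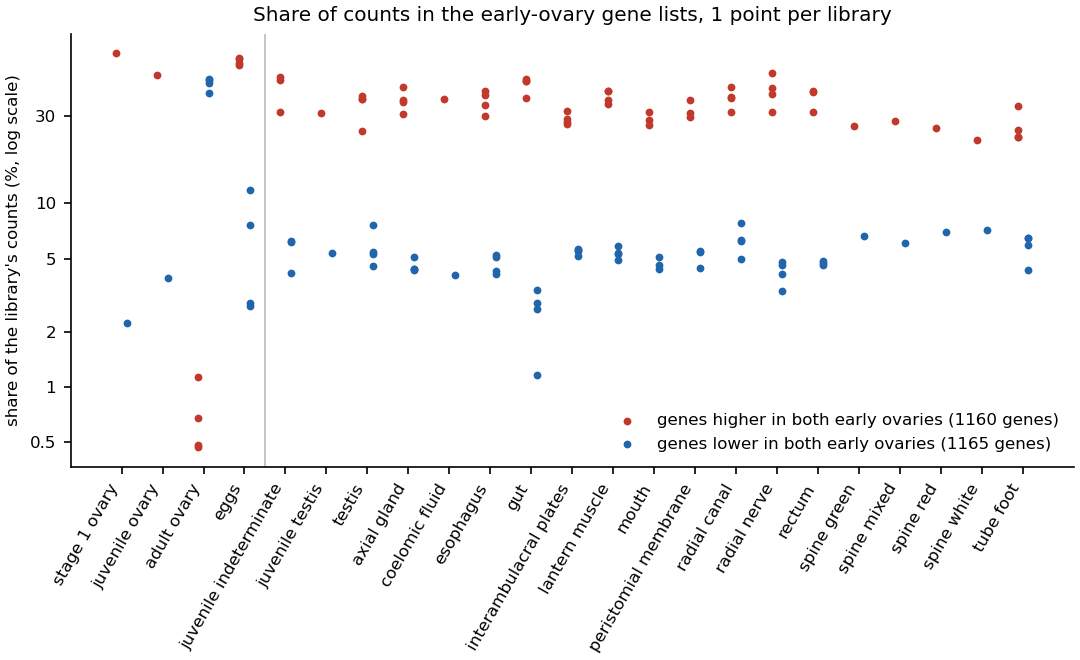
Share of each library's counts (%, log axis) held by the genes higher (red) and lower (blue) in both early ovaries, with 1 point per library and the sample types along the horizontal axis. The adult ovary libraries are the ones in which the blue points, at 39.9% to 47.6%, lie above the red points, at 0.47% to 1.12%. Both lists were chosen from the early and adult ovary libraries.

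The same lists were then measured in the other sample types. In the 46 libraries of adult somatic types the higher genes held 22.2% to 51.7% of counts, with a median of 34.7%, and the lower genes 1.16% to 7.82%, with a median of 5.06%. In the juvenile testis the higher genes held 31.2% and the lower genes 5.37%. In the 3 juvenile gonads of indeterminate sex the higher genes held 31.4%, 47.1% and 48.8% and the lower genes 6.28%, 4.2% and 6.2%. Both early ovaries lay within the range of the somatic libraries for 744 (64.1%) of the higher genes and 888 (76.2%) of the lower genes. For 745 of the higher genes (64.2%), each of the 58 libraries outside the ovary comparison lay above every adult ovary library, and for 913 of the lower genes (78.4%) each lay below. The adult ovary libraries enter both the rule and that placement. No share over all genes tested stands beside these counts, so they are not read as a trait of the lists. Those 745 genes held 38.2% of counts in the stage 1 ovary, 31.9% in the juvenile ovary, 34.9% to 47.1% in eggs and 0.252% to 0.761% in adult ovaries.

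The genes most abundant in somatic tissues took a smaller share of counts in the adult ovary. The 100 genes with the highest mean over the somatic libraries, a list drawn without any ovary library, held 41.6% of counts in the stage 1 ovary and 27.2% in the juvenile ovary. They held 2.96% to 3.61% in the adult ovaries and 24.1% to 38.1% in eggs. Of the 100, edgeR called 80 higher and 4 lower in the early ovaries than in the adult ovaries, beside 20.5% and 16.2% of all genes tested. The gap was much smaller in the next 400 genes of that ranking. These held 16.8% and 19.6% in the early ovaries, 12.0% to 14.1% in the adult ovaries and 16.9% to 19.6% in eggs, and 200 were called higher and 51 lower. Within this ranking, the gap in share of counts thus lay mainly in the first 100 genes, while calls of higher genes reached beyond them. RNA quality values were not used here, and the part of this pattern in the comparison of early with adult ovaries was not tested.

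**Figure D2:**
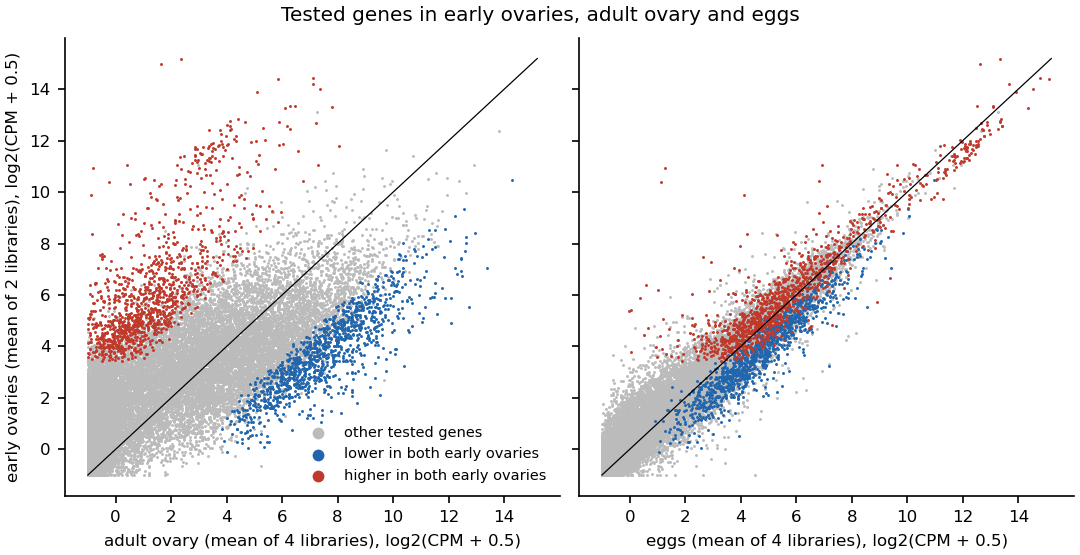
Mean level of each tested gene in the early ovaries (vertical axis, mean of 2 libraries) against adult ovary (left) and eggs (right, means of 4 libraries), all as log2(CPM + 0.5), with the diagonal drawn. Genes higher (red) and lower (blue) in both early ovaries were chosen from the early and adult ovary values of the left panel. In the right panel the median log2 fold change against eggs was 0.08 for the red genes and -1.23 for the blue genes, which lie mostly below the diagonal, against -0.15 for all genes tested.

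Among the higher genes, LOC121428736 and LOC121428788 had the widest gap to the adult ovaries and the highest mean level over the early libraries, a mean set mostly by the stage 1 ovary. In the juvenile ovary other genes were higher, such as LOC121418683 at 23000 CPM. LOC121428736 was at 83400 CPM in the stage 1 ovary and 16700 CPM in the juvenile ovary. It was at 6.04, 5.06, 1.29 and 9.91 CPM in the adult ovaries and at 7480, 26000, 4480 and 13000 CPM in eggs. All early and egg libraries were above all adult ovaries by a wide gap (log2 fold change against the adult ovary 12.63 ± 1.26 (SE), edgeR adjusted p = 0.000188). LOC121428788 was at 80800 and 12800 CPM in the early ovaries, 4.71, 3.83, 0.199 and 5.64 CPM in the adult ovaries, and 4280, 14400, 3790 and 6620 CPM in eggs. Its log2 fold change was 13.04 ± 1.39 (SE; edgeR adjusted p = 0.000236). The pair took 6.83% and 6.62% of all counts in the stage 1 library. Their log2 levels over the 64 libraries correlated at r = 0.997, and 19 genes lie between them in the RefSeq order. Whether the counting split reads between similar copies is not known. Both also reached high levels outside the gonad, with 64200 CPM for LOC121428736 and 36300 CPM for LOC121428788 in gut replicate 4. Gut-specific genes, 198 in all, took 0.107% of counts in the stage 1 ovary and 0.104% in the juvenile ovary. They took 4.06% to 8.87% in the gut and 0.0191% to 0.0251% in the adult ovaries. In eggs they took 0.0688% to 0.104%, and the median of the other somatic libraries was 0.0953%. The next most similar gene over the 64 libraries was LOC121415804 (r = 0.712), at 3520 and 2190 CPM in the early ovaries and 1.49 to 22.9 CPM in the adult ovaries.

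Among the lower genes, LOC121413954 and LOC121415635 had the widest gap. LOC121413954 was at 3.47 CPM in the stage 1 ovary and 6.87 CPM in the juvenile ovary. It was at 588, 486, 695 and 563 CPM in the adult ovaries and at 74.3, 3.4, 199 and 11.7 CPM in eggs. The adult ovaries lay between 486 and 695 CPM, and the egg libraries ranged from the early level to 199 CPM. Its log2 fold change was -7.03 ± 1.59 (SE; edgeR adjusted p = 0.00552). LOC121415635 was at 4.49 and 17.5 CPM in the early ovaries, 1120, 1770, 1230 and 1310 CPM in the adult ovaries, and 157, 48.0, 406 and 148 CPM in eggs, and its log2 fold change was -7.38 ± 1.07 (SE; adjusted p = 0.00067 in edgeR). The profiles nearest to LOC121413954 over the 64 libraries were those of LOC121419908 (r = 0.941) and LOC121420061 (r = 0.929). LOC121419908 was at 88.6 to 164 CPM in the adult ovaries and at 4.08 and 9.74 CPM in the early ones. LOC121420061 was at 162 to 228 CPM in the adult ovaries and at 4.96 and 8.27 CPM in the early ones.

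The lower genes with the highest adult level were LOC121429138 and LOC121423180. LOC121429138 was at 754 and 2660 CPM in the early ovaries and at 18700, 25300, 20400 and 16900 CPM in the adult ovaries. Its egg levels were 3390, 1120, 6680 and 648 CPM. The log2 fold change was -3.98 ± 1.14 (SE; edgeR adjusted p = 0.0175). With the stage 1 ovary alone as the early side it was -4.77 with an adjusted p of 0.0518 in edgeR, and with the juvenile ovary alone -3.18 with 0.127. LOC121423180 was at 39.98 CPM in the stage 1 ovary, 426 CPM in the juvenile ovary and 9650, 12800, 11500 and 9200 CPM in the adult ovaries. It was at 1310, 185.1, 3100 and 302 CPM in eggs. For both genes egg replicates 1 and 3 were the highest of the egg libraries, and no egg library reached the adult ovaries. The log2 fold change of LOC121423180 was -6.5 ± 1.4 (SE; edgeR adjusted p = 0.00453), and with the juvenile ovary alone it was -4.91 with an adjusted p of 0.0604 in edgeR.

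**Figure D3:**
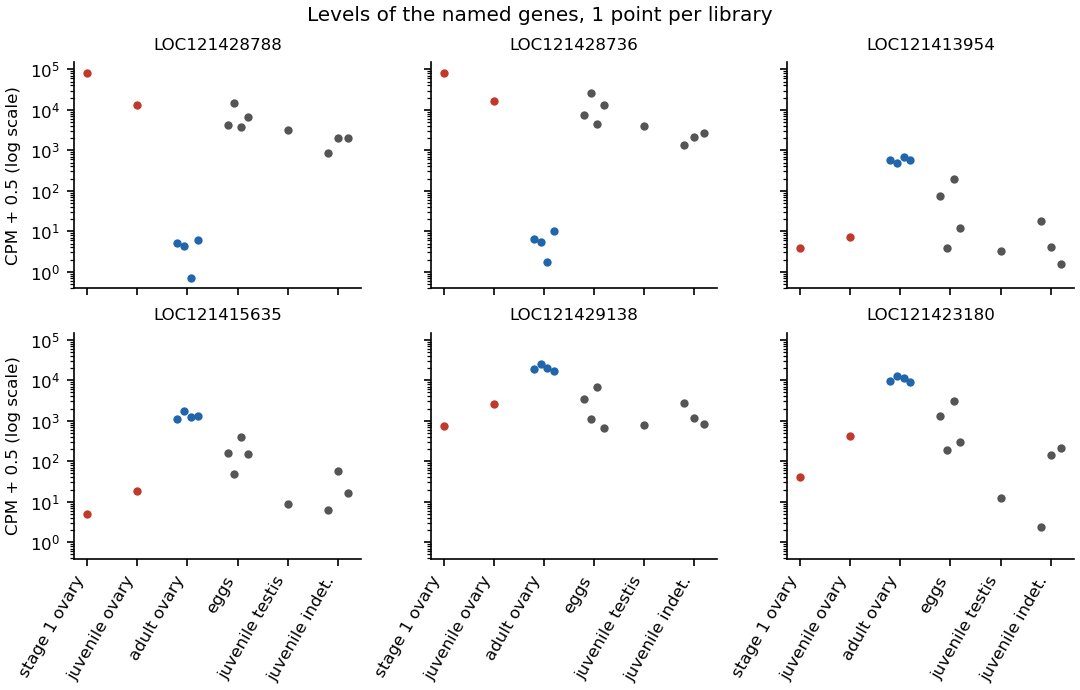
Level of 6 named genes (CPM + 0.5, log axis) in the gonad and egg libraries, with 1 point per library, early ovaries in red, adult ovaries in blue and other libraries in grey. In the first 2 genes the adult ovaries lie at 0.199 to 9.91 CPM and all other libraries shown are far above. In the other 4 the adult ovaries are the highest group. The egg libraries spread widely below them, and in LOC121413954, LOC121429138 and LOC121423180 some fall within or below the range of the early ovaries.

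Against eggs, no gene was called with the design used for the adult ovaries. The 22187 genes tested gave 0 higher (0.0%) and 0 lower (0.0%) in the early ovaries by edgeR, the lowest adjusted p was 0.234, and 284 higher and 713 lower genes had an unadjusted p under 0.05. The DESeq2 Wald test called 38 higher and 75 lower. With the replicate number as a block shared by ovary and egg libraries, edgeR called 17 higher and 3 lower, and with all replicated groups in one fit 10 higher and 1 lower. With the stage 1 ovary alone as the early side, 13 genes were called higher, and without adult ovary replicate 3, 1 was called higher. The median log2 fold change of all genes tested was -0.15. The count of 0 does not show that the early ovary and the egg hold the same RNA.

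The 1160 higher genes had a median level of 48.0 CPM in the stage 1 ovary and 52.6 CPM in the juvenile ovary. In eggs the medians were 36.9, 45.2, 30.8 and 50.3 CPM, and in the adult ovaries 1.27, 2.03, 1.27 and 3.31 CPM. The 1165 lower genes had medians of 11.6 and 13.3 CPM in the early ovaries, 32.8, 13.4, 51.5 and 15.5 CPM in eggs, and 174, 194, 177 and 198 CPM in the adult ovaries. The median difference from the mean of the early ovaries over the higher genes (log2 scale) was -0.49, -0.12, -0.65 and 0.1 in egg replicates 1 to 4, beside -0.09, -0.17, -0.28 and -0.06 over all genes tested. The median egg library lay between the early and the adult ovaries in 543 (46.8%) of the higher genes, within the range of the early ovaries in 384 (33.1%) and above both in 225 (19.4%). For the lower genes egg replicates 2 and 4 were near the early ovaries, and replicates 1 and 3 lay between them and the adult ovaries. The median egg library lay between the early and the adult ovaries in 957 (82.1%) of the lower genes. It lay within the range of the early ovaries in 192 (16.5%) and below both in 15 (1.29%). Both lists were chosen for a wide gap between early and adult ovaries, which leaves room for eggs to fall between. No share over all genes tested stands beside these placements, so nothing is read from them.

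Genes specific to eggs, adult ovary or testis were taken from the adult libraries, without the early ones. A set of 60 egg genes (at least 10 CPM in eggs and at least 4-fold above every other replicated adult type, with no overlap) held 9.06% of counts in the stage 1 ovary and 10.6% in the juvenile ovary. It held 6.32% to 19.1% in eggs and 0.0685%, 0.104%, 0.104% and 0.198% in the adult ovaries. Of the 60, both early ovaries lay above every adult ovary in 56, edgeR called 52 higher, and 38 were among the 1160. Over all genes tested, the shares were 39.5%, 20.5% and 5.23%. The median log2 fold change was 4.56 against the adult ovary and -0.54 against eggs. Low levels in the adult ovary are part of how the egg set was chosen, so nothing is read from these counts. A set of 1070 adult ovary genes, chosen for high adult ovary levels, held 2.39% and 5.26% of counts in the early ovaries, 39.5% to 46.4% in the adult ovaries and 7.58%, 2.64%, 11.3% and 3.15% in eggs. Of these, 1057 were called lower in the early ovaries, and 708 were among the 1165, beside 16.2% and 5.25% of all genes tested. The choice of the set used the same adult ovary libraries, and nothing is read from these counts either. A set of 115 testis genes held 0.0356% and 0.0515% in the early ovaries, 0.00817% to 0.0154% in the adult ovaries and 1.19% in the juvenile testis. In eggs the testis set held 0.0165% to 0.0368%. The 10 somatic sets together held 0.185% and 0.239% of counts in the early ovaries, 0.144% to 0.19% in eggs and 0.0443% to 0.101% in the adult ovaries.

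**Figure D4:**
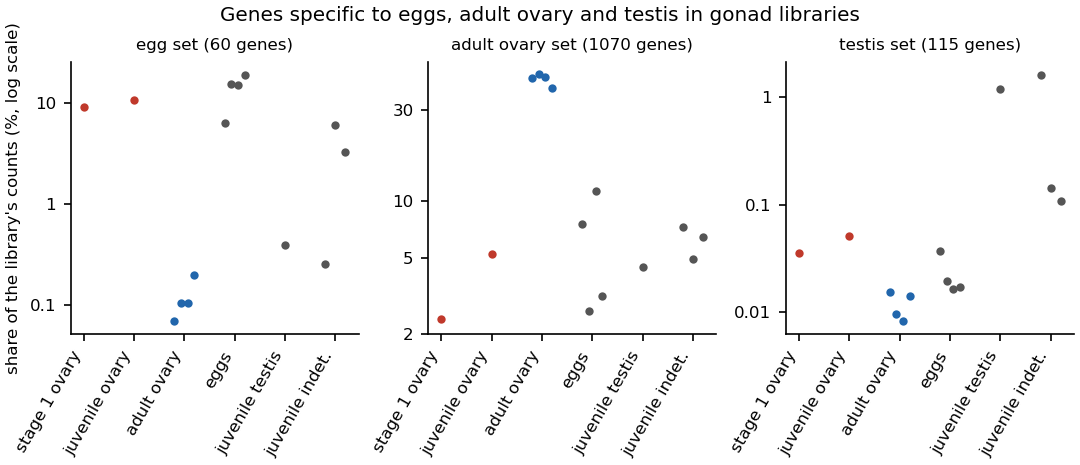
Share of each library's counts (%, log axis) held by the genes specific to eggs, adult ovary and testis, with 1 point per library, early ovaries in red and adult ovaries in blue. The early ovaries, at 9.06% and 10.6%, lie within the egg range for the egg set, and for the adult ovary set they lie at 2.39% and 5.26%, against 39.5% to 46.4% in adult ovaries.

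A few genes were higher in the early ovaries than in both the adult ovaries and the eggs. In 14 genes both early libraries lay at least 4-fold above all 8 adult ovary and egg libraries, and in 0 genes they lay below all of them. Without egg replicate 1 the count was 21. All 14 were called higher against the adult ovary by edgeR, beside 20.5% of all genes tested, and 0 against eggs, where the lowest adjusted p was 0.234. The 14 were chosen for their gap in these same libraries, so nothing is read from the calls against the adult ovary. LOC121428833 was at 869 CPM in the stage 1 ovary and 4330 CPM in the juvenile ovary. It was at 0, 0, 0 and 0.318 CPM in the adult ovaries and at 2.78, 3.75, 0 and 4.31 CPM in eggs. With a limit of 3 counts, a count of 0 allows up to 0.0906, 0.142 and 0.149 CPM in adult ovary replicates 1 to 3 and 0.11 CPM in egg replicate 3, for counting error only. Its log2 fold change against eggs was 9.42 ± 1.51 (SE; edgeR adjusted p = 0.236), and 11.24 with the replicate block (edgeR adjusted p = 0.000538). The DESeq2 test gave 9.49 with an adjusted p of 0.0321, and the fit over all replicated groups 9.46 with 0.034 in edgeR. The adjacent gene LOC121428778 was at 1070 and 1700 CPM in the early ovaries, at 0.332, 0.189, 0 and 1.32 CPM in the adult ovaries and at 2.64, 0.349, 0.147 and 12.8 CPM in eggs. Against eggs its log2 fold change was 8.37 ± 1.55 (SE; edgeR adjusted p = 0.301), and 10.04 with the replicate block (edgeR adjusted p = 3.36e-05). In the fit over all replicated groups it was 8.37, and LOC121428778 was not called. The 2 genes correlated at r = 0.916 over the 64 libraries.

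Neither gene was restricted to ovaries among the juvenile gonads. LOC121428833 was at 13600 CPM in the juvenile testis and at 5.97, 5.36 and 7980 CPM in the 3 indeterminate gonads, and LOC121428778 at 4020 CPM in the juvenile testis and 3.36, 5.6 and 3720 CPM in the indeterminate gonads. In adult testis they did not exceed 8.8 and 8.54 CPM. Of the 14 genes, 8 lay at least 4-fold above all adult ovary and egg libraries in the juvenile testis, 9 in indeterminate gonad 3, 1 in indeterminate gonad 1 and 0 in indeterminate gonad 2. In the 4 adult testis libraries 0, 2, 1 and 1 did. All juvenile gonads share a provider, and the label of the stage 1 ovary does not name its own.

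The 14 genes did not share one pattern over the other gonads, and in 7 of them a somatic library lay above the lower of the early ovaries. The 3 described here were picked after their values had been seen. LOC121411741 followed the adjacent pair, at 570 and 1530 CPM in the early ovaries, 7010 CPM in the juvenile testis and 5.43, 15.2 and 3840 CPM in the indeterminate gonads. In eggs it was at 23.9, 8.81, 2.42 and 130 CPM, and it did not exceed 0.0945 CPM in the adult ovaries. LOC121429934 was at 25.8 and 43.3 CPM in the early ovaries but at 0.377 CPM in the juvenile testis and 0, 9.38 and 0.608 CPM in the indeterminate gonads. It was at 0, 0, 0 and 0.364 CPM in the adult ovaries and 1.42, 4.32, 0 and 5.64 CPM in eggs, with a median of 0.196 CPM over the somatic libraries. LOC121405715 was at 68.5 and 98.8 CPM in the early ovaries, 4.02 CPM in the juvenile testis and 16.7, 23.6, 28.3 and 22.0 CPM in the adult testis, with a median of 15.7 CPM and a highest value of 67.9 CPM over the somatic libraries. The adult testis was thus above the juvenile testis for this gene, the reverse of the adjacent pair.

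**Figure D5:**
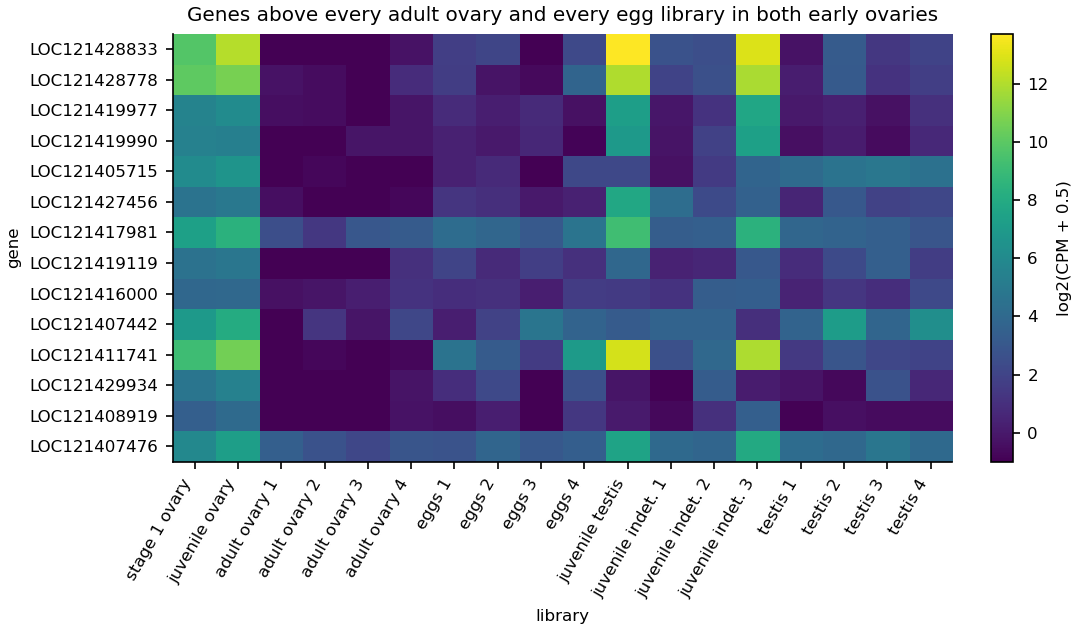
Levels of the 14 genes that lay at least 4-fold above every adult ovary and egg library in both early ovaries, as log2(CPM + 0.5) by colour, with genes in rows and libraries in columns. The first 2 rows are the adjacent genes LOC121428833 and LOC121428778, which are also high in the juvenile testis and in indeterminate gonad 3 but not in the adult testis.

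Of the 1160 higher genes, 12 lay at least 4-fold above every adult somatic library in both early ovaries, and 2 of the 12, LOC121428778 and LOC121411741, were also among the 14 above. The 12 held 0.876% and 1.11% of counts in the early ovaries, 0.00748% to 0.0183% in the adult ovaries and 0.59% to 1.7% in eggs. They held 1.37% in the juvenile testis, where LOC121411741 was at 7010 CPM and LOC121428778 at 4020 CPM while the other 10 were at 0.251 to 58.3 CPM. The median level of the 12 was 24.8 CPM there, against 607 and 790 CPM in the early ovaries. In the indeterminate gonads the 12 held 0.00604%, 0.457% and 1.07%. The 2 given here were picked after their values had been seen. LOC121415210 was at 1510 and 2950 CPM in the early ovaries, 0.967, 9.07, 2.58 and 10.6 CPM in the adult ovaries and 249, 2720, 684 and 4930 CPM in eggs, and its highest somatic library was at 33.2 CPM. LOC121408237 was at 4610 and 2910 CPM in the early ovaries, 17.0, 24.2, 10.4 and 13.8 CPM in the adult ovaries and 4980, 5690, 4330 and 6580 CPM in eggs. It lies next to LOC121408238, another of the 12, and the 2 correlated at r = 0.969 over the 64 libraries. No gene separated all 6 ovary libraries from all egg libraries by 4-fold in either direction (0 higher and 0 lower).

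The early libraries also differed from each other, with 1 library each and no test. Of 9856 genes at 10 CPM or more in either library, 181 were at least 8-fold higher in the stage 1 ovary and 190 at least 8-fold higher in the juvenile ovary. The 181 held 3.3% of stage 1 counts and 0.229% of juvenile counts, and the 190 held 0.583% and 9.17%. LOC121426824 was at 141 CPM in the stage 1 ovary and had 0 counts in the juvenile ovary, at least 1410-fold lower against a floor of 3 counts in that library. LOC121428195 was at 437 and 1.53 CPM, 285-fold apart. In the other direction LOC121429025 was at 0.246 CPM in the stage 1 ovary and 215 CPM in the juvenile ovary, 874-fold apart, and LOC121419549 at 2.87 and 691 CPM, 241-fold apart. LOC121419549 also varied among eggs, at 17.6, 2070, 1.32 and 845 CPM. Of the 181 genes, all 4 adult ovaries lay nearer the juvenile level in 137 and nearer the stage 1 level in 15. Of the 190, they lay nearer the stage 1 level in 110 and nearer the juvenile level in 45. All 4 egg libraries lay nearer the juvenile level in 115 of the 181 and nearer the stage 1 level in 7. For the 190 they lay nearer the stage 1 level in 49 and nearer the juvenile level in 23. Each list was chosen for a high level in 1 library, so no likeness to the other library is read from these counts.

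Some RNA classes differed between the early libraries as well. Long noncoding RNA rows did not, at 2.73% of counts in the stage 1 ovary and 2.77% in the juvenile ovary. The longer mitochondrial ribosomal RNA row took 0.0929% of counts in the stage 1 ovary and 2.12% in the juvenile ovary, against 0.889% to 1.61% in adult ovaries, 0.304% to 0.826% in eggs and 1.35% to 3.29% in the other juvenile gonads. The adult somatic libraries ran from 0.248% to 2.26%. The stage 1 share lay below every range given here, and the juvenile share within those of the somatic libraries and other juvenile gonads. The juvenile gonads were made by another provider, and age and provider cannot be told apart in the difference between the early libraries. The shorter mitochondrial ribosomal RNA row was lower in both early ovaries, at 372 and 793 CPM against 5430, 3220, 6380 and 4880 CPM in the adult ovaries (log2 fold change -3.33 ± 0.8 (SE), edgeR adjusted p = 0.00719). Of 22 mitochondrial transfer RNA rows, 0 were called higher and 2 (9.09%) lower. Among 1512 tested long noncoding RNA rows, 260 (17.2%) were called higher and 122 (8.07%) lower. Over all genes tested, the shares were 20.5% higher and 16.2% lower. Long noncoding RNA rows made up 6.81% of the genes tested and supplied 34 (2.93%) of the 1160 and 33 (2.83%) of the 1165 genes. They made up 2.07% and 2.58% of the genes that met the level of each list.

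In the gene order of the RefSeq table, 19.5% of the higher genes had another higher gene as a direct neighbour, against 13.7% for the 6908 genes that met the level on the early side. For the lower genes the share was 18.5%, against 13.2% for the 5592 genes that met it in the adult ovaries. In both backgrounds, members included, the share counts genes next to a member of the list. Each list held 10 runs of at least 3 consecutive members, with a longest run of 3 for the higher and 4 for the lower genes. Protein coding genes made up 96.6% of each list and 97.0% and 96.6% of the genes that met the level.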

How the data were processed

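PolyA RNA was sequenced from tissues, gonads and eggs, and the authors deposited 1 table of raw counts per gene for 64 libraries. Per the submitters' processing notes, which give no version, the tools were STAR, featureCounts and DESeq2. The build and the strand setting are not given in the sources used here. Genes that overlap or have similar copies are therefore uncertain. Of 25890 lines, 3 with broken fields were dropped, and the other 25887 matched a RefSeq table (assembly Lvar_3.0), used for names, biotype and gene order. No pair of libraries held identical counts. Library totals ran from 13113913 to 59521125.

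The early, adult ovary and egg libraries (10) entered 1 fit in edgeR 4.0.16 (R 4.3.3, limma 3.58.1), after filterByExpr by group and TMM scaling, without a replicate block. The contrast was the mean of the 2 early libraries minus adult ovary, or minus eggs. Each standard error is the log2 fold change over the square root of its F value. Only 6 residual degrees of freedom per gene support the spread, to which edgeR adds 6.546 prior degrees of freedom drawn from all genes. The p-values measure the spread between libraries, which may be technical. DESeq2 1.42.0 was an alternative. Same-numbered adult ovary and egg libraries deviated together (correlations of 0.395, 0.183, 0.37 and 0.174 over 7895 genes). Differently numbered ones ranged from -0.22 to 0.18, the highest for adult ovary 4 with egg 2. Numbers 1 and 3 were thus set apart from mismatched pairs, and numbers 2 and 4 were not. Pairing by number was assumed, and a fit with the number as a block stands beside the results it changes. CPM values and the gene lists used TMM over all 64 libraries.

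Genes were named by a rule: per comparison and direction, the 2 with the widest gap between the nearest libraries and, against the adult ovary, also the 2 with the highest mean level on the higher side. Each had to be in the list of its comparison, and those named against the adult ovary had to be called there. Lists of known gene groups matched 0 genes, since no product names were given. The members and lists were chosen with earlier results of these data known. Shares of counts cover counting error only, and no interval is given because it is far below the spread between libraries.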

Additional observations from a re-analysis of the deposited data

Results flagged for a closer look

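In 30 groups of 4 libraries, 3 had a library set apart from the other three by a gap beyond Dixon's critical value. Chance reaches it in about 1 in 20 groups of normally spread values, a rate that does not hold for values at or near 0 such as these. LOC121428833 was at 0.318 CPM in adult ovary replicate 4 and at 0 in the other adult ovaries. LOC121426824 was at 0.0945 CPM in adult ovary replicate 2 and at 0 in the others. LOC121429025 was at 0.817 CPM in egg replicate 1 and at 0.0499 CPM or less in the other egg libraries. All 3 levels are far below those in the early libraries that the genes were named for.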

How the results depend on the processing

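The counts of genes called against the adult ovary ranged from 2936 to 6743 (higher) and from 1890 to 3990 (lower) over all alternatives, and the lowest count of higher genes, 2936, came with a filter that ignored the groups. Leaving out 1 library gave 3387 to 5069 higher and 1890 to 3535 lower genes. The filter that ignored the groups gave 2936 higher and 2909 lower genes. The replicate block, which pairs same-numbered ovary and egg libraries, gave 5435 and 3744 genes, and the blocked count changed no call against the adult ovary among the named genes. Against eggs the replicate block gave 17 higher and 3 lower, the DESeq2 test 38 and 75, the fit over all replicated groups 10 and 1, and leaving out 1 library 0 to 13 higher and 0 lower. Both egg replicates 1 and 3 were left out together as an alternative chosen after seeing the data, giving 3463 and 3289 against the adult ovary and 0 and 0 against eggs.

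The list sizes followed the margin. With a 2-fold margin (4-fold between the early libraries) the lists held 1885 higher and 2386 lower genes, 41 and 13 against both adult ovary and eggs, 5 lower in all ovaries than in eggs, and 582 and 661 between the early libraries. With an 8-fold margin (16-fold) the main lists held 643 and 442 genes, 6 genes were higher than both adult ovary and eggs, and 91 and 63 differed between the early libraries. With a pseudocount of 5 CPM they held 649 higher genes, 8 higher than both, and 78 and 63 between the early libraries. A minimum of 1 CPM gave 1858 higher genes and 1 lower than both. Leaving out 1 library gave 1223 to 1492 and 1268 to 1349 genes in the main lists, 14 to 21 higher and 0 to 2 lower than both, and 0 to 4 lower in all ovaries than in eggs. The causes of these changes were not tested. For the 6 named genes of the comparison with the adult ovary, 110 of 113 alternative values kept direction and call, and 3 lost the call. The early side rests on 1 library per label, and no alternative with reduced depth was run.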
